A study of Mus musculus with 6 samples.

Results

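The cytosolic ribosomal protein genes encode the protein part of the ribosome that translates nuclear-encoded mRNAs. They were chosen by name, as the protein-coding mouse genes whose symbol is Rpl or Rps followed by a digit, together with Rplp0, Rplp1, Rplp2 and Rpsa, and without the S6 kinases (Rps6k), Rps19bp and symbols that end in -ps and a number. This gave 82 of the 11835 genes with FPKM, 33 of the small (40S) subunit and 49 of the large (60S) subunit, and all 82 were among the 11593 genes tested. Rpl10l, Rpl39l and Rpl3l meet the rule in the annotation but have no listed transcript and were not analysed here.

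The data came from C2C12, a mouse myoblast line that fuses into myotubes in low serum, with 3 libraries from cells transfected with NC siRNA (siNC) and 3 from cells transfected with CNN3 siRNA (siCNN3). Both groups were grown with 10% fetal bovine serum and differentiated in 2% horse serum, and the labels call them mouse myotube where the paper speaks of differentiating myoblasts. For differentiation assays in general, the paper's methods give a repeat of the transfection and 1 harvest time, but they do not tie the sequenced cultures to a harvest time or name the CNN3 siRNA used for them. The labels do not say that the 3 libraries of a group are separate cultures, and p-values measure the spread between these libraries, which may be technical.

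Each ribosome holds a single copy of nearly every ribosomal protein, so the cell makes these proteins in near equal number from mRNAs that are among its most abundant. Most of these mRNAs begin with a 5' terminal oligopyrimidine (TOP) motif, a cytosine followed by a run of pyrimidines, through which mTORC1 and LARP1 regulate their translation and stability. A growing muscle cell adds ribosomes to raise its protein synthesis, and protein synthesis was a readout of the study, so the comparison asks whether the mRNAs of the ribosomal proteins differed in level between siCNN3 and siNC.

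The bases around an annotated start of 14 of these genes are shown because the TOP motif lies at the 5' end of the mRNA. They are members with the largest differences or without overlap that have a RefSeq window, 2 parent genes of paralogs (Rps27 and Rpl22), and Rps6 as a member with a long run. Each window runs from 10 bases before to 20 bases after a RefSeq transcript start (GRCm38.p6), is written 5' to 3' on the strand of the gene, and has its longest run of C and T in capitals.
Rps6 (chr4:86857348-86857377, minus strand): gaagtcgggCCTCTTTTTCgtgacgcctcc
Rps7 (chr12:28635934-28635963, minus strand): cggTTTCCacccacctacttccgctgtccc
Rps9 (chr7:3704031-3704060, plus strand): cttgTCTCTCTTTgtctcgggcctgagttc
Rps18 (chr17:33955646-33955675, minus strand): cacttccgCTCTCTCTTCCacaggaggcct
Rpl15 (chr14:18270967-18270996, minus strand): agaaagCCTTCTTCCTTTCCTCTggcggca
Rpl27 (chr11:101442235-101442264, plus strand): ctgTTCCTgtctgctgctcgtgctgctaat
Rpl10 (chrX:74270806-74270835, plus strand): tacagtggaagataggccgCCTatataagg
Rps25 (chr9:44407704-44407733, plus strand): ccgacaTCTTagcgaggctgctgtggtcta
Rpl37a (chr1:72711250-72711279, plus strand): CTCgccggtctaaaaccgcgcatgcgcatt
Rps27 (chr3:90213629-90213658, minus strand): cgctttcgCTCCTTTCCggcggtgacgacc
Rps27l (chr9:66946076-66946105, plus strand): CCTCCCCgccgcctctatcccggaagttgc
Rpl22 (chr4:152325716-152325745, plus strand): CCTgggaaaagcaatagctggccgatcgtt
Rpl22l1 (chr3:28805498-28805527, plus strand): gcgcaagcccgTTCTCTTCCCacggctgca
Rpl7l1 (chr17:46782637-46782666, minus strand): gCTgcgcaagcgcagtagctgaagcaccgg
Rps6, Rps9, Rps18, Rpl15, Rps27 and Rpl22l1 hold runs of 9 to 17 pyrimidines in these windows, and the windows of Rpl10, Rpl22, Rpl37a and Rpl7l1 hold runs of at most 3. The annotated starts of a gene differ between catalogues. For 49 of the 62 members with a RefSeq window, the start lay within 100 bases of the start of the member's most abundant deposited transcript in GENCODE, and for 13 of them at the same base. Counted from that GENCODE start (negative is upstream), the RefSeq start was at -53 for Rpl27, -44 for Rpl10, -30 for Rpl37a and -143 for Rpl22. These windows end before it. For Rps6 (45), Rps9 (48), Rps18 (12), Rpl15 (81), Rpl22l1 (39) and Rps25 (575) the windows begin after it. Runs in these windows therefore do not describe the first bases of that transcript.

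Over all members with a RefSeq start, 35 of 73 start windows (47.9%) held a run of at least 8 pyrimidines between 20 bases before and 30 bases after the start on the gene's strand, compared with 19.0% of the 32851 windows of all genes. The median longest run was 7 bases in members and 5 in all genes. The letters CGGAAG, the core bound by ETS factors, stood on either strand in 61.6% of member promoters (250 bases before to 50 after the start) and in 16.9% of all promoters. CTTCCG, its reverse complement, begins with 5 pyrimidines, so both searches can share bases. For ribosome biogenesis genes the shares were 11.7% for the run and 50% for CGGAAG, and for mitochondrial ribosomal protein genes they were 21.3% and 53.3%. The run was thus more frequent in members than in those lists, while CGGAAG was frequent in each of the lists. A match describes letters and does not show a site.

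Cnn3, the targeted gene, was between 61.4 and 62.8 FPKM in the siNC libraries and at 19.04, 39.2 and 25.6 FPKM in the siCNN3 libraries (replicates 1, 2 and 3), so the knockdown group lay below without overlap, although the difference of -1.19 on the log2 scale did not pass the threshold (adjusted p = 0.0669, limma). FPKM are fragments per length of transcript and per mapped fragments, summed here over the transcripts of a gene, and a library summed to between 321988 and 355025 FPKM over all genes, lowest in siNC replicate 1. The read number is not given, so the depth behind a value is unknown. Of 16 skeletal muscle markers, 14 were tested and 6 were called lower by limma. The median difference was -1.20 on the log2 scale, with 13 below 0 and 1 above 0, at 0.88. Their summed levels were 180 to 209 FPKM in siNC and 116 to 132 FPKM in siCNN3. Most of these sums was Des, at means of 117 and 91.3 FPKM, which was not called (adjusted p = 0.196, limma). Erythroid markers summed to 229 to 656 FPKM in siNC and 52.6 to 75.5 FPKM in siCNN3, with 5 of 9 tested and Alas2, Klf1 and Slc4a1 among those without a listed transcript. Fibroblast markers (5 of 7 tested) summed to 496 to 568 and 376 to 401 FPKM, mostly Col1a2 (means of 350 and 302 FPKM). Leukocyte markers (3 of 9 tested, Ptprc without a listed transcript) summed to 20.1 to 27.1 and 16.3 to 19.2 FPKM. The part of these differences in the members' values was not tested, and in such bulk samples fewer cells of a type and less RNA per cell cannot be told apart.

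The mRNAs of the ribosomal proteins held a large and nearly equal share of the transcriptome in both groups. Their summed level was 42603, 38865 and 39840 FPKM in siNC (replicates 1, 2 and 3, listed in this order throughout) and 39929, 38338 and 43615 FPKM in siCNN3. The groups overlapped, with the highest sum in siCNN3 replicate 3 and the next in siNC replicate 1. The mean sums of 40436 ± 1939 FPKM (siNC) and 40627 ± 2707 FPKM (siCNN3; SD, n = 3) had a ratio of 1.005, and the ratio ran from 0.968 to 1.03 with each library left out. As a share of all FPKM the members held 13.2%, 11.1% and 11.5% in siNC and 11.2%, 10.9% and 12.4% in siCNN3.

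None of the 82 members was called by limma, in which a gene was called at a Benjamini-Hochberg adjusted p below 0.05 over all tested genes. Of the 11593 genes, 239 (2.06%) were called, 1.73% higher and 0.336% lower in siCNN3. At an unadjusted p below 0.05 from limma, 2 members were higher in siCNN3 (Rpl22l1 and Rpl27) and 1 was lower, compared with 9.94% of all genes higher and 6.14% lower. With each gene's own variance in place of the moderated one, 0 members and 0 of all genes were called, and before adjustment 3 members were higher and 1 lower. The median log2 fold change (siCNN3 minus siNC on log2(FPKM + 1)) of the members was 0.01, with an interquartile range of -0.07 to 0.07, compared with 0.03 and a range of -0.17 to 0.24 over all genes. There were 45 members above 0 and 37 below 0, and 54 of the 82 differed by less than 0.10 on the log2 scale.

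For most members the interval of the difference between these libraries was narrow. Such intervals measure the spread between libraries, which may be technical, and leave out errors of scaling and of shared reads. The 95% confidence interval from limma lay within a 1.5-fold difference in either direction for 73 members (89.0%), compared with 4261 of all tested genes (36.8%). The median width of that interval was 0.49 on the log2 scale for members and 0.88 for all genes. The tested genes include genes down to a mean of 0.5 FPKM, and no set matched to the members' level was compared. The interval reached a 2-fold difference (1 on the log2 scale) for Rps18 and Rpl7l1 among the members named here. Members also varied little within a group, with a median SD between replicates of 0.113 on the log2 scale, compared with 0.198 for the 3942 other genes at or above the level of the lowest member.

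**Figure D1:**
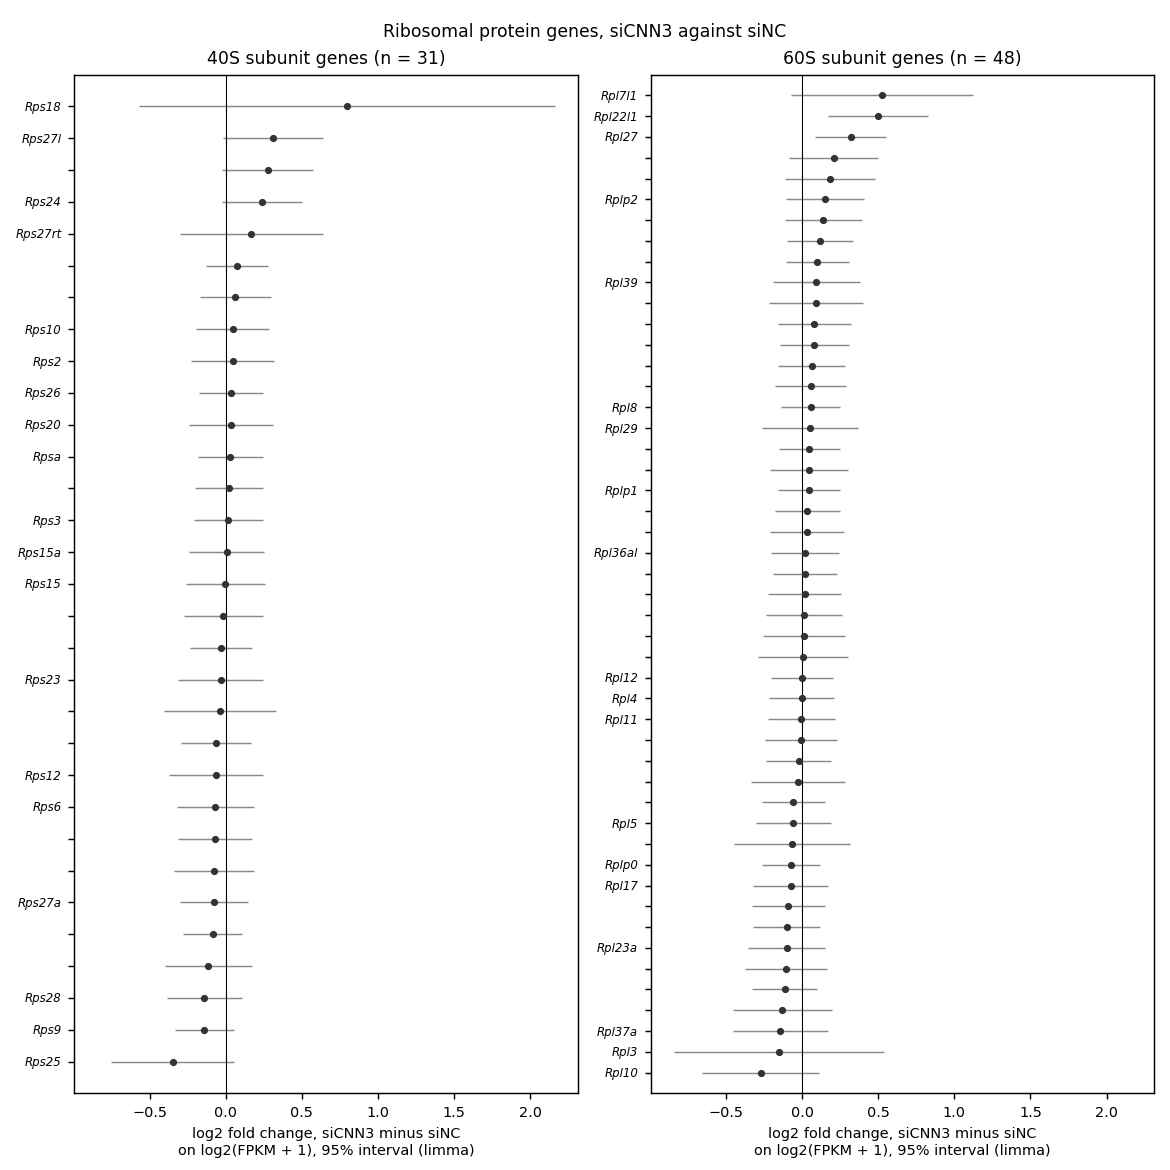
Log2 fold change (siCNN3 minus siNC, on log2(FPKM + 1)) of 31 small subunit and 48 large subunit genes, sorted by value and with the genes named by rule labelled, with points for the estimate and bars for the 95% confidence interval from limma. Most points lie close to 0, and the intervals of Rpl22l1 and Rpl27 do not include 0 before adjustment.

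Of the 33 small subunit genes 17 were above and 16 below 0 (median log2 fold change 0.00), and of the 49 large subunit genes 28 were above and 21 below 0 (median 0.02). The groups did not overlap for 7 members, where 23.1% of all tested genes had no overlap. These were 5 with siCNN3 above siNC (Rpl22l1, Rpl27, Rps27l, Rpl15 and Rps7) and 2 with siCNN3 below siNC (Rps9 among them), and over all tested genes the shares were 13.8% above and 9.35% below. Rpl15 and Rps7, which the rule for named genes does not cover, were named after their values were seen and differed by 0.10 and 0.07 on the log2 scale.

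Levels spanned a wide range even though the proteins are needed in near equal number. Mean levels over the 6 libraries ran from 16.2 to 1305 FPKM with a median of 457 FPKM, on a scale that divides by the length of the annotated transcript. Rpl8, whose protein lies near the peptidyl transferase centre, was highest, at 1329.8, 1252 and 1257 FPKM in siNC and 1337, 1268 and 1384 FPKM in siCNN3. Rps15, a protein of the head of the small subunit, was next, at 1367, 1182 and 1227 FPKM in siNC and 1214, 1152 and 1407 FPKM in siCNN3. Rps6 followed, and Rps24 and Rpl23a completed the 5 highest. The ranges of Rpl8 and Rps15 overlapped, so their order does not exceed the spread.
Rps24, a small subunit protein, was at 1124, 975 and 957 FPKM in siNC and 1169, 1103 and 1330.3 FPKM in siCNN3 (log2 fold change 0.24, adjusted p = 0.355, limma). Rpl23a, which lies at the exit of the peptide tunnel, was at 1205, 1063 and 1053 FPKM in siNC and 1014, 945 and 1135 FPKM in siCNN3 (log2 fold change -0.10). In both genes the groups overlapped.
The 5 lowest members were Rps27rt, Rpl29, Rpl7l1, Rps20 and Rps15a. Rpl29 was between 21.6 and 27.0 FPKM, Rps20 between 67.6 and 81.7 FPKM and Rps15a between 71.1 and 80.9 FPKM over the 6 libraries, each with overlapping groups and a log2 fold change between 0.00 and 0.05. The most abundant listed transcript was 3706 nt long for Rps20 and 5179 nt for Rps15a, where the member median was 831.5 nt. The part of these lengths in their low rank was not tested. Rpl29 shared 47.9% of its 50-base stretches with transcripts of 84 other annotated genes, and how the program behind the FPKM divided such reads is not given in the sources used here.

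Sharing of sequence with processed pseudogenes is common in this family and bears on every level. Of the 82 members, 81 shared at least 1 stretch of 50 bases in their most abundant transcript with the transcript of another gene, and 39 shared more than 50% of such stretches. The median share was 49.1%. Rps27 shared 98.6% with its retrogene copy Rps27rt, and Rps18 shared 86.7%, mostly with Gm11361. Rpl10 shared 85.4% with Rpl10-ps3, and Rps6 shared 84.6%. Rpl8 shared only 7.86% and Rpl22 5.20%. How such reads were divided is not known, so levels of members with a high share are uncertain, by an amount that was not tested.

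The paralogs, second copies of a ribosomal protein gene, had 3 of the 5 largest higher values among the members. Of the 10 in the list, 5 were tested (Rpl22l1, Rpl7l1, Rps27l, Rps27rt and Rpl36al), and Rpl3l, Rpl10l, Rpl39l, Rpl26l1 and Rps4l were not analysed here. The 5 lay at a median of 0.31 on the log2 scale (0.17 under quantile normalization and 0.13 with the length and GC trend removed) and above 0, except that Rpl36al was below 0 under quantile normalization (-0.12), with the length and GC trend removed (-0.09) and, by less than the replicate SD, under TPM and median-of-ratios scaling and without siNC replicate 1. None of them was called. Without the paralogs, the other 77 members had a median of 0.00.
Rpl22l1, a paralog of the large subunit protein Rpl22, was at 100.2, 110.4 and 123 FPKM in siNC and 152, 139 and 183 FPKM in siCNN3. Every siCNN3 library was above every siNC library. Mean levels were 111 ± 11.6 FPKM (siNC) and 158 ± 22.3 FPKM (siCNN3; SD, n = 3). They differed by 0.50 on the log2 scale (standard error 0.139, 95% confidence interval 0.17 to 0.83). This had the lowest adjusted p of any member (unadjusted p = 0.00914, adjusted p = 0.137, limma). After each library's trend with transcript length and GC content was removed, an alternative chosen after seeing the data, it was 0.22 (adjusted p = 0.546, limma).
The 552-nt and 525-nt transcripts of Rpl22l1 were both higher in siCNN3, by 0.67 and 0.40 on the log2 scale, and neither was called (adjusted p = 0.443 and 0.251, limma). Rpl22 itself, named because it is the parent gene, was at 155, 121 and 139.7 FPKM in siNC and 118, 120.1 and 161 FPKM in siCNN3. The groups of Rpl22 overlapped, and its log2 fold change was -0.07 with a 95% confidence interval of -0.45 to 0.32.
Rps27l, a paralog of the small subunit protein Rps27, was at 129, 165 and 149.9 FPKM in siNC and 212, 173 and 167 FPKM in siCNN3. All siCNN3 values exceeded all siNC values, although siNC replicate 2 lay close to siCNN3 replicate 3. The difference was 0.31 on the log2 scale (standard error 0.139, adjusted p = 0.336, limma). It was 0.13 with the length and GC trend removed, 0.17 under quantile normalization and 0.20 without siCNN3 replicate 1. Rps27, the parent gene, was between 675 and 828 FPKM in the 6 libraries with overlapping groups and a log2 fold change of -0.02. Rps27rt, the retrogene copy, was at 19.98, 11.9 and 14.4 FPKM in siNC and 15.5, 18.5 and 17.2 FPKM in siCNN3, also overlapping, and 91.1% of its stretches occur in Rps27.
Rpl7l1, related in sequence to Rpl7, was at 32.7, 55.4 and 50.4 FPKM in siNC and 76.1, 75.1 and 48.7 FPKM in siCNN3. The value of siCNN3 replicate 3 lay within the siNC range and the other siCNN3 values lay above it. The difference was 0.53 on the log2 scale (standard error 0.253, 95% confidence interval -0.07 to 1.12, adjusted p = 0.364, limma), and 0.30 without siNC replicate 1. Rpl36al, a copy of Rpl36a, was at 198 to 228 FPKM in siNC and 217 to 218 FPKM in siCNN3. Rpl36a, its parent gene, was at 436 to 446 FPKM in siNC and 387 to 441 FPKM in siCNN3, also with overlap.

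**Figure D2:**
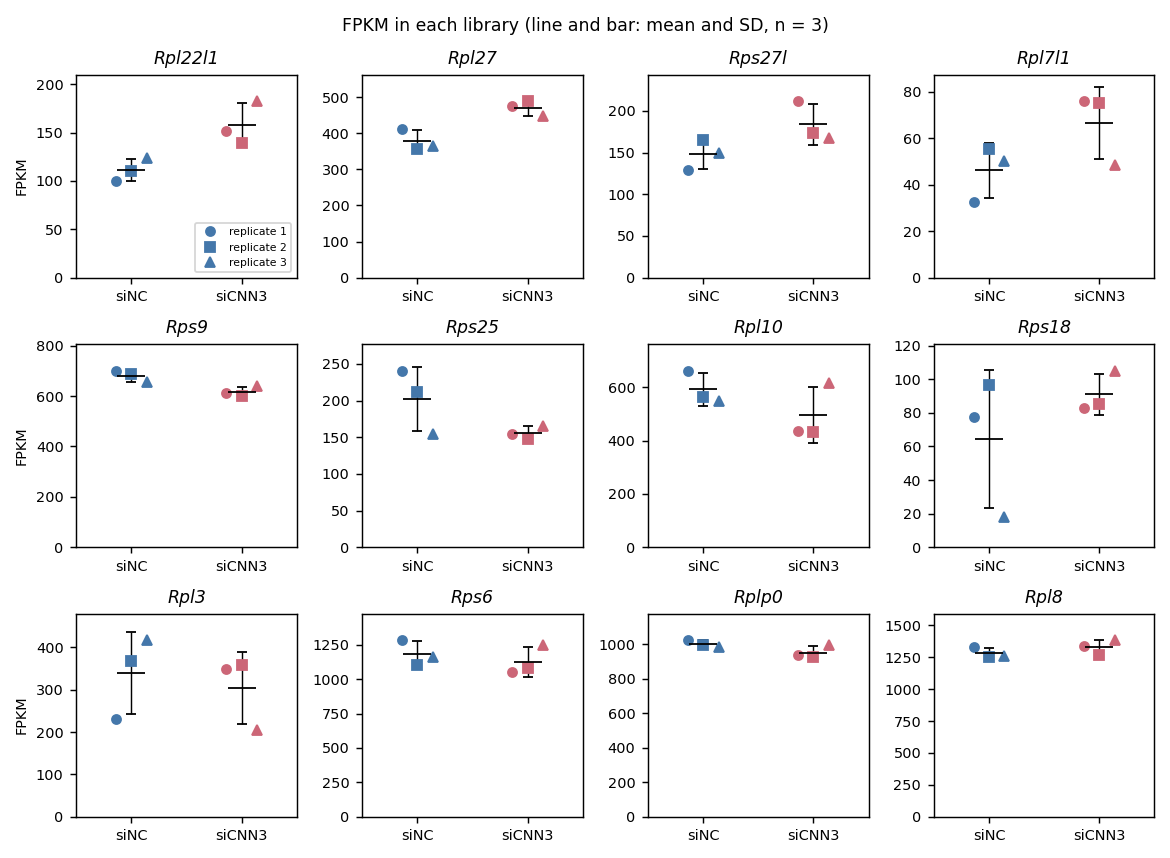
FPKM of 12 members in each library, with points for the 3 replicates (circle, square and triangle for replicates 1, 2 and 3), a horizontal line for the mean and a bar for the SD (n = 3), and axes that start at 0. Rpl22l1, Rpl27 and Rps27l had every siCNN3 value above every siNC value and Rps9 had every siCNN3 value below, while siNC replicate 3 stood apart for Rps18 at 18.04 FPKM.

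Among the other members, Rpl27 of the large subunit had the lowest unadjusted p. Rpl27 was at 413, 356 and 364 FPKM in siNC and 476, 489 and 446 FPKM in siCNN3. The groups did not overlap. Mean levels were 378 ± 30.6 FPKM (siNC) and 470.4 ± 21.9 FPKM (siCNN3; SD, n = 3), which differed by 0.32 on the log2 scale (standard error 0.0975, unadjusted p = 0.0141, adjusted p = 0.174, limma). Its unadjusted p was 0.0567 with FPKM rescaled to TPM and 0.066 with median-of-ratios scaling in limma.
Rps25, a small subunit protein needed for initiation at certain internal ribosome entry sites, was at 241, 211 and 154 FPKM in siNC and 155, 148 and 165 FPKM in siCNN3. Its siNC replicate 3 lay among the siCNN3 values. The log2 fold change was -0.35 (adjusted p = 0.372, limma). It was -0.53 without siNC replicate 3 (adjusted p = 0.208, limma) and -0.21 without siNC replicate 1 (adjusted p = 0.576, limma).
Rpl10, which joins the large subunit late in its assembly, was at 663, 564 and 549 FPKM in siNC and 437, 431 and 616 FPKM in siCNN3. The value of siCNN3 replicate 3 lay within the siNC range, and the log2 fold change was -0.27 (adjusted p = 0.459, limma). Without siCNN3 replicate 3 it was -0.44 (adjusted p = 0.084, limma), the lowest adjusted p of a member in any alternative tried, and without each of the other libraries it lay between -0.18 (without siCNN3 replicate 2, adjusted p = 0.822, limma) and -0.32.
Rpl37a, a zinc-binding protein of the large subunit, was at 575, 555 and 553 FPKM in siNC and 499, 434 and 605 FPKM in siCNN3 (log2 fold change -0.14). Here too siCNN3 replicate 3 was above the siNC values while replicates 1 and 2 were below them.
Rpl3, a core protein of the large subunit, was at 230.2, 368 and 417 FPKM in siNC and 349, 359 and 205 FPKM in siCNN3. It was lowest in siCNN3 replicate 3 and siNC replicate 1, and its log2 fold change was -0.15 with a 95% confidence interval of -0.85 to 0.54. It was 0.02 without siNC replicate 3 and 0.11 without siCNN3 replicate 3, and -0.41 without siNC replicate 1.
Rps18, of the head of the small subunit, had the largest log2 fold change, 0.80, and the largest spread. It was at 77.7, 96.8 and 18.04 FPKM in siNC and 82.8, 85.5 and 105 FPKM in siCNN3. The difference turned on siNC replicate 3, without which it was 0.06 (adjusted p = 0.919, limma), and with all libraries the 95% confidence interval was -0.57 to 2.16 (adjusted p = 0.546, limma).

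Sorted by role, the functional sites of the ribosome had median log2 fold changes between -0.08 and 0.03, and none of their members was called. The P stalk, which recruits elongation factors, is formed by Rplp0, Rplp1, Rplp2 and Rpl12 and had a median of 0.02. Rplp0, often used as a reference gene, was at 1024, 999 and 983 FPKM in siNC and 937, 925 and 995 FPKM in siCNN3, overlapping through siCNN3 replicate 3. Its log2 fold change was -0.07 with a 95% confidence interval of -0.26 to 0.11. Rplp1 was at 1034, 1095 and 1013 FPKM in siNC and 1068, 1027 and 1147 FPKM in siCNN3 (0.04), Rpl12 differed by 0.00, and Rplp2, at 267 ± 18.1 and 297 ± 28.1 FPKM (SD, n = 3), by 0.15.
Rpl5 and Rpl11, which with 5S ribosomal RNA form a particle that can bind MDM2, differed by -0.06 and -0.01. Rpl5 was at 373, 312 and 344 FPKM in siNC and 312, 324 and 350.0 FPKM in siCNN3, with overlapping groups. Rpl4, Rpl17 and Rpl39, which line the tunnel of the nascent peptide, differed by 0.00, -0.08 and 0.09.
On the small subunit, Rps2, Rps3 and Rps9 surround the entry of the mRNA. Rps9 was at 701, 687 and 655 FPKM in siNC and 612, 599 and 640.2 FPKM in siCNN3. Its groups did not overlap, and the log2 fold change was -0.14 with a 95% confidence interval of -0.34 to 0.05 (adjusted p = 0.445, limma). Rps2 and Rps3 differed by 0.04 and 0.02, and these turned to -0.08 and -0.11 under quantile normalization.
At the mRNA exit, Rps26, Rps28 and Rpsa differed by 0.04, -0.14 and 0.03. Rps10, Rps12, Rps15, Rps20 and Rps23, of the decoding site and the head, differed by between -0.07 and 0.05.
Rps6, whose protein is phosphorylated by the S6 kinases downstream of mTORC1, was at 1284, 1099.9 and 1161 FPKM in siNC and 1049, 1079.8 and 1249 FPKM in siCNN3. The groups overlapped and its log2 fold change was -0.07 with a 95% confidence interval of -0.32 to 0.18. Rps27a, made as a fusion to ubiquitin, differed by -0.08. Fau and Rack1, ribosomal proteins whose symbols lie outside the rule, differed by 0.00 and 0.01.

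Most members were highest in the same library of each group. Within siNC, 66 of 82 members (80.5%) were highest in replicate 1, compared with 21.3% of the other genes, and within siCNN3, 60 members (73.2%) were highest in replicate 3, compared with 37.7% of the other genes. Relative to its own mean over the 6 libraries, the median member was at 0.07, -0.07 and -0.01 on the log2 scale in the siNC libraries (replicates 1, 2 and 3) and at -0.02, -0.06 and 0.11 in the siCNN3 libraries. The highest libraries were thus 1 of each group. The median of all other genes was at -0.12, 0.04 and 0.04 in siNC and 0.03, 0.04 and -0.02 in siCNN3, lowest in siNC replicate 1.
The medians of both subunits were highest in these libraries, with small subunit medians of 0.09 and large subunit medians of 0.06 in siNC replicate 1 and of 0.12 and 0.09 in siCNN3 replicate 3. Member transcripts were short, with a median length of 831.5 nt for the most abundant one. The medians of the 401 other genes under 1000 nt and at 20 FPKM or more were -0.15, 0.06 and 0.02 in siNC and 0.06, 0.03 and 0.00 in siCNN3.
The labels give no batch or date, and the part of library preparation and of transcript length in this pattern was not tested.

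**Figure D3:**
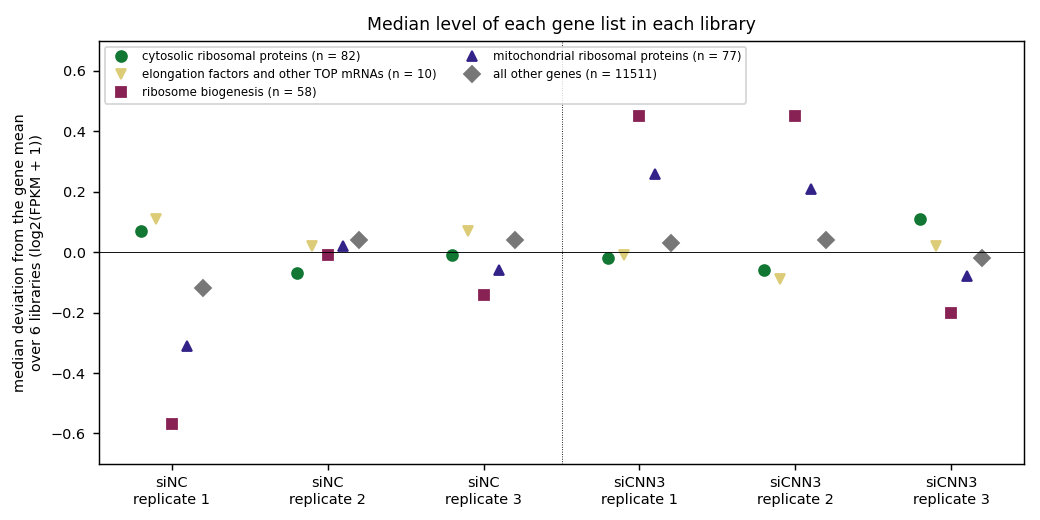
Median deviation from the gene's own mean over the 6 libraries (log2(FPKM + 1)) of 5 sets of genes in each library, 1 symbol per set. The ribosomal proteins are highest in siNC replicate 1 and siCNN3 replicate 3, where ribosome biogenesis genes are at their lowest.

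Other genes of translation were taken from lists by function, and their counts called higher are to be read against the 1.73% of all tested genes called higher. Among 10 elongation factors and other TOP mRNAs, 0 were called by limma, 1 was higher and 2 were lower at an unadjusted p below 0.05, and the median log2 fold change was -0.18, or 0.00 under quantile normalization. Eef1a1 and Tpt1 are given as examples named after their values were seen. Eef1a1, the factor that brings aminoacyl-tRNA to the ribosome, was at 2108, 1949.9 and 1852 FPKM in siNC and 1605, 1557 and 1839.7 FPKM in siCNN3, without overlap (log2 fold change -0.24, adjusted p = 0.301, limma). Tpt1, another TOP mRNA, was at 1950.0, 1609.8 and 1756 FPKM in siNC and 1289, 1326 and 1929.8 FPKM in siCNN3, and so was high in siNC replicate 1 and siCNN3 replicate 3 like the members.
Ribosome biogenesis genes, which make and process ribosomal RNA and assemble the subunits, lay at a median log2 fold change of 0.46, 56 of 58 being above 0, and 4 were called higher and 0 lower. These were Gnl3 (1.09, adjusted p = 0.0304), Nop14 (1.07, adjusted p = 0.0334), Myc (0.91, adjusted p = 0.0157) and Taf1d (0.71, adjusted p = 0.0471, limma for each), the last chosen after its values were seen. Myc, the transcription factor that drives many of them, was at 37.7, 35.3 and 33.9 FPKM in siNC and 74.98, 64.1 and 64.3 FPKM in siCNN3, without overlap. The list did not separate the groups in every library. Its median deviation was -0.57, -0.01 and -0.14 in the siNC libraries and 0.45, 0.45 and -0.20 in the siCNN3 libraries, the last of these (replicate 3) below siNC replicates 2 and 3. The median log2 fold change of the list ran from 0.30 without siNC replicate 1 to 0.67 without siCNN3 replicate 3, and leaving out siNC replicate 3 or siCNN3 replicate 1 or 2 left 0 called, and leaving out siNC replicate 1 or 2 left 1.
Mitochondrial ribosomal proteins, the counterparts of the members in mitochondria, had a median of 0.26 with 65 of 77 above 0, and the median was 0.12 (57 above 0) without siNC replicate 1, 0.37 without siCNN3 replicate 3, 0.17 under quantile normalization and 0.15 with the length and GC trend removed. Of these, 2 were called higher, Mrpl30 (1.28, adjusted p = 0.0229, limma) and Mrpl1 (0.99, adjusted p = 0.0387, limma), and leaving out siNC replicate 1 or 3 or siCNN3 replicate 1 or 2 left 0 called, siNC replicate 2 left 1, and siCNN3 replicate 3 left 5. With the highest transcript of each gene 0 were called. Their library medians were -0.31, 0.02 and -0.06 in siNC and 0.26, 0.21 and -0.08 in siCNN3, an order like that of the biogenesis genes and unlike that of the members.
Of 35 initiation factors, 1 was called higher, Eif2s2, a subunit of eIF2 (0.95, adjusted p = 0.0144, limma), with a median of 0.14. The median was 0.07 without siNC replicate 1, 0.25 without siCNN3 replicate 3, 0.08 with TPM, and 0.03 under quantile normalization and with the length and GC trend removed. No initiation factor was called when siNC replicate 1 or 3 or siCNN3 replicate 1 or 2 was left out. Of 22 genes of mTORC1 and the S6 kinase arm, 1 was called higher, Eif4ebp1, which encodes an inhibitor of eIF4E (0.82, adjusted p = 0.0165, limma), with a median of -0.08. That median was 0.06 without siNC replicate 2, 0.04 without siNC replicate 3 and 0.10 without siCNN3 replicate 3. With all libraries it was -0.16 under quantile normalization and -0.13 with TPM. No gene of the list was called when siNC replicate 3 or siCNN3 replicate 1 or 2 was left out. Of 10 chaperones and importers of ribosomal proteins, 0 were called by limma and 2 were higher and 1 lower at an unadjusted p below 0.05.

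**Figure D4:**
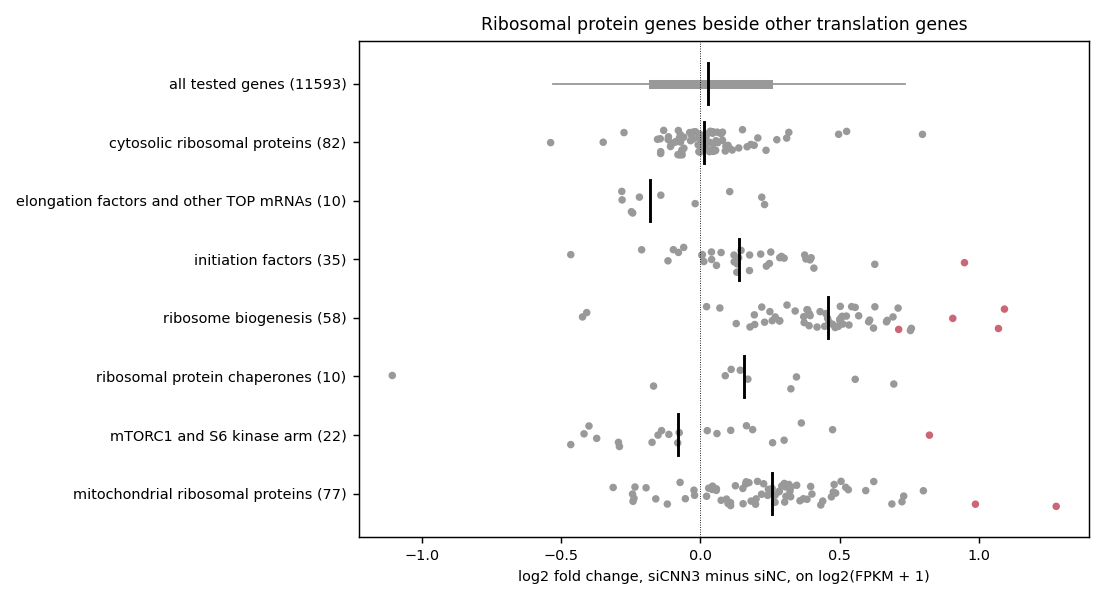
Log2 fold change (siCNN3 minus siNC, on log2(FPKM + 1)) of each gene in 7 lists, with the number of genes in brackets, a black bar for the median and red points for genes called by limma. The band for all tested genes spans the interquartile range and its thin line percentiles 5 to 95, and the ribosomal proteins lie close to 0 with 0 called, while biogenesis genes lie mostly above 0.

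At the level of single transcripts, the 82 members had 209 transcripts, 32 members with 1 and 50 with several (up to 7). Of the 205 tested, 0 were called by limma, compared with 117 of 21658 transcripts (0.540%) over all genes, while 11 (5.37%) were higher and 3 (1.46%) lower at an unadjusted p below 0.05, where the shares over all tested transcripts were 6.80% and 3.91%. The median SD between replicates was 0.155 on the log2 scale for the 143 member transcripts at 10 FPKM or more, with a maximum of 1.51. In some genes the division between the transcripts differed between libraries. The following Rps12 and Rpl38 transcripts were chosen after their values were seen.
The 494-nt transcript of Rps12 was at 310.4 FPKM in siNC replicate 1 and at 22.4 to 30.02 FPKM in the other 5 libraries, and the 584-nt transcript at 463 FPKM in siNC replicate 1 and 544 to 669 FPKM in the others. The sum of Rps12 was 836, 678 and 666 FPKM in siNC and 686, 619 and 774 FPKM in siCNN3.
The 364-nt transcript of Rpl38 held 41.5% and 40.7% of the gene's FPKM in siCNN3 replicates 2 and 3 and 18.5% to 22.9% in the other libraries. Its minor 457-nt transcript was at 18.4, 18.0 and 15.7 FPKM in siNC and 30.4, 46.4 and 33.8 FPKM in siCNN3, a difference of 1.03 on the log2 scale (unadjusted p = 0.00131, adjusted p = 0.104, limma). The minor 345-nt transcript of Rpl38 was likewise higher in every siCNN3 library, by 0.79 (adjusted p = 0.237, limma), and the groups overlapped for its other 2 transcripts. For Rps18, both transcripts were low in siNC replicate 3, at 15.97 and 2.07 FPKM. The lengths of a gene's transcripts were close in some members (527 and 560 nt for Rps18) and far apart in others (250 to 5179 nt for Rps15a). The program that divided the reads between them is not named in the sources used here, so its part in these values was not tested.

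**Figure D5:**
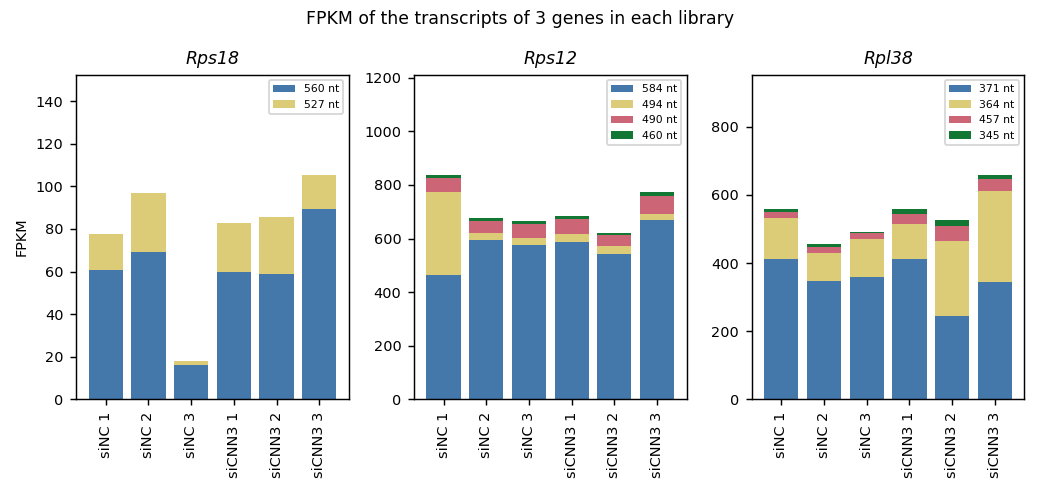
Stacked FPKM of the transcripts of Rps18, Rps12 and Rpl38 in each library, with transcript lengths in the keys and bars that start at 0. Rps18 is low in siNC replicate 3, and the 494-nt transcript of Rps12 in siNC replicate 1 exceeds its values in the other libraries.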

How the data were processed

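RNA of 6 libraries of C2C12 cells was sequenced, and the authors deposited FPKM for 24023 Ensembl transcripts. The submitters' processing notes name Bowtie 0.12.2 and the builds mm8 and mm10 without a role. The program that estimated FPKM, its annotation and the read numbers are not given in the sources used here, so no counting error can be stated. Identifiers were matched without version to GENCODE vM21 (GRCm38), which placed 23949. The other 74 held up to 0.220% of a library's FPKM and were left out. FPKM were summed per gene symbol, and log2(FPKM + 1) was fitted, for genes averaging 0.5 FPKM or more, with limma 3.58.1 in R 4.3.3 (mean-variance trend, no covariate, Benjamini-Hochberg adjustment, threshold 0.05). The log2 scale understates changes of low genes. An exact permutation test of 3 against 3 cannot go below 0.1. Sequences came from RefSeq (GRCm38.p6), matched by symbol for 62 of 82 members, and sharing was counted as exact 50-base stretches among GENCODE transcripts. Values were handled with Python 3.11.15, pandas 2.3.3, numpy 2.4.6, matplotlib 3.10.9 and data.table (version 1.17.8).

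Members and lists were chosen with earlier results of these data known. Named were called members, the 5 largest and smallest fold changes, the 5 highest and lowest levels, the 5 largest differences without overlap, the 5 largest spreads, paralogs and role lists. Of the other lists, up to 3 called genes were named. Alternatives were a pseudocount of 0.1, no filter or a filter at 5 FPKM, TPM, median-of-ratios or quantile scaling, the replicate block, limma without trend, the highest or only protein-coding transcripts, genes without failed zeros, and each library left out. A test with each gene's own variance (Student) and the removal of length and GC trends were chosen after seeing the data. Results of some genes are not reported here.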

Additional observations from a re-analysis of the deposited data

How the results depend on the processing

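No member was called in any of the 19 alternatives, with the lowest adjusted p of a member (limma, or the test with each gene's own variance) between 0.084 and 0.278 over them. The median log2 fold change of the members was -0.10 with the length and GC trend removed, between -0.04 and 0.01 in the other settings that kept all libraries, and between -0.02 and 0.05 with a library left out. Over all genes, limma called 62 higher and 6 lower with the replicate block and 100 and 22 with the highest transcript of each gene, while the test with each gene's own variance, which is not limma's, called 0 and 0, and lower genes numbered 63 with median-of-ratios scaling, 93 with quantile normalization and 93 with the trend removed. With a library left out there were 16 to 443 higher and 4 to 159 lower. Of the other translation genes, 8 of which were called higher, 0 were higher with the block, 4 with the highest transcript, 0 with each gene's own variance and 0 to 13 with a library left out, and 1 and 2 were lower with quantile normalization and with the trend removed. The replicate block changed no call of a member. Correlations of the deviations of same-numbered libraries were -0.28, 0.31 and -0.02, and those of differently numbered libraries ran from -0.45 to 0.44. The labels do not say whether same-numbered libraries were paired, and correlations over 3 libraries per group cannot settle it. Among the 40 members named by rule, log2 fold changes that turned sign by more than the replicate SD were those of Rpl36al (-0.12), Rps15a (-0.09), Rps2 (-0.08) and Rps3 (-0.11) under quantile normalization, of Rps12 (0.14) with the highest transcript, and of Rpl36al (-0.09), Rps20 (-0.15), Rps26 (-0.11), Rps3 (-0.14) and Rpsa (-0.10) with the trend removed, and the cause was not tested. Another 59 sign changes of these 40 members were smaller than that SD. The unknown depth, 3 libraries per group and reads shared with pseudogenes limit these values.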
